A study of Homo sapiens with 3 samples.

Results

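The keratin genes studied here are the 54 protein-coding genes with symbols from KRT1 to KRT86, picked by symbol from the 58735 genes of the deposited table, and they comprise 28 genes for type I chains and 26 for type II chains. They were measured by RNA-seq in HaCaT, an immortalised line of human epidermal keratinocytes labelled wild type. The CB culture was exposed to carbon black at 25 µg/mL for 24 h, the S1650b culture was exposed to the particulate sample S 1650b at 50 µg/mL for 24 h, and the control culture was exposed to no particles for 24 h. The particles were given in medium without fetal bovine serum, and the series asks how such exposure acts on keratinocytes, their barrier included. Each group is 1 library of a single cell line, so no difference below has a replicate check and no p-value is given. The particle samples were applied at different doses, so particle type and dose cannot be told apart between them.

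Keratins are the proteins of the intermediate filaments of epithelial cells. A type I chain pairs with a type II chain, and the pair assembles into filaments that join desmosomes and hemidesmosomes and give the cell its mechanical strength. Which pair a cell makes depends on its place: KRT5 and KRT14 in the basal layer of skin, KRT1 and KRT10 in the differentiating layers above it, KRT6 forms with KRT16 and KRT17 in wounds and in hyperproliferative skin, KRT8 with KRT18 in simple epithelia, and KRT4 with KRT13 in the lining of the mouth and oesophagus. Cultured keratinocyte lines are known to express keratins of several of these groups at once.

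The libraries held 20946139 gene counts for CB, 20417744 for S1650b and 20658247 for the control. Counts were scaled with TMM factors, which correct a library's total for its composition, and these were 0.945 for CB, 1.12 for S1650b and 0.944 for the control. Folds are ratios of counts scaled in this way to library size (CPM), each with an exact 95% interval that covers counting error only, and reads copied by PCR make even that interval too narrow. A gene was called higher or lower where its fold was at least 1.5 and the interval lay on that side of 1. A gene was tested if any library had 1 CPM or more of it, which left 14647 genes and 18 of the 54 keratins, with 9 of each type. KRT1 passed this filter only through the control and KRT86 only through S1650b. Levels between genes are compared in FPKM, the deposited values scaled to exon length and library size. All 11 keratinocyte markers were above 1 CPM in each library, with summed levels of 5984 CPM in CB, 5855 in S1650b and 6331 in the control. Of 8 fibroblast markers, 3 reached 1 CPM in each library, and their sums were 30.9 CPM in CB, 12.7 in S1650b and 94.0 in the control. The matrix genes COL3A1 and DCN made up most of the control sum, while COL1A2, PDGFRA, PDGFRB and THY1 had 0 counts in the control. Sums of the endothelial, melanocyte, immune and Merkel cell markers lay between 1.18 and 55.3 CPM. Whether these genes have a part in any keratin difference was not tested.

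Keratin RNA took a smaller share of the counts in both particle libraries. The 54 genes held 1.80% of all counts in CB (exact binomial interval 1.798 to 1.809), 1.265% in S1650b (1.26 to 1.27) and 2.16% in the control (2.152 to 2.165). With CB the shares of the types parted: type I genes held 0.820% of counts in CB, 0.599% in S1650b and 1.17% in the control, whereas type II genes held 0.983% in CB, 0.666% in S1650b and 0.986% in the control. In a bulk library, fewer cells making a keratin and less of its RNA per cell cannot be told apart.

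Against the control, CB moved the keratins in both directions and S1650b moved most of them down. In CB against control, 3 of the 18 tested keratins were higher, where 4.91% of all tested genes were, and 6 were lower, where 10.4% were. Their median log2 fold was −0.20, beside 0.01 over all tested genes. In S1650b against control, 2 keratins were higher, beside 20.4% of all tested genes, and 11 were lower, beside 21.8%. Their median log2 fold was −1.32, beside −0.10 over all tested genes. At a fold of 2, 0 keratins were higher in CB, beside 1.77% of all tested genes, and 5 lower, beside 5.52%. In S1650b 1 was then higher, beside 11.0%, and 10 lower, beside 8.76%. The medians and counts are over the keratins that passed the filter, not over all 54. Some passed it through 1 library alone, namely KRT1 and KRT86. Without these, 16 keratins had 1 CPM or more in both libraries compared. In CB 3 of the 16 were higher and 5 lower, beside 567 and 1101 of 13088 such genes. In S1650b 1 was higher and 10 lower, beside 2532 and 2860 of 13234 such genes. Both comparisons share the control library.

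**Figure D1:**
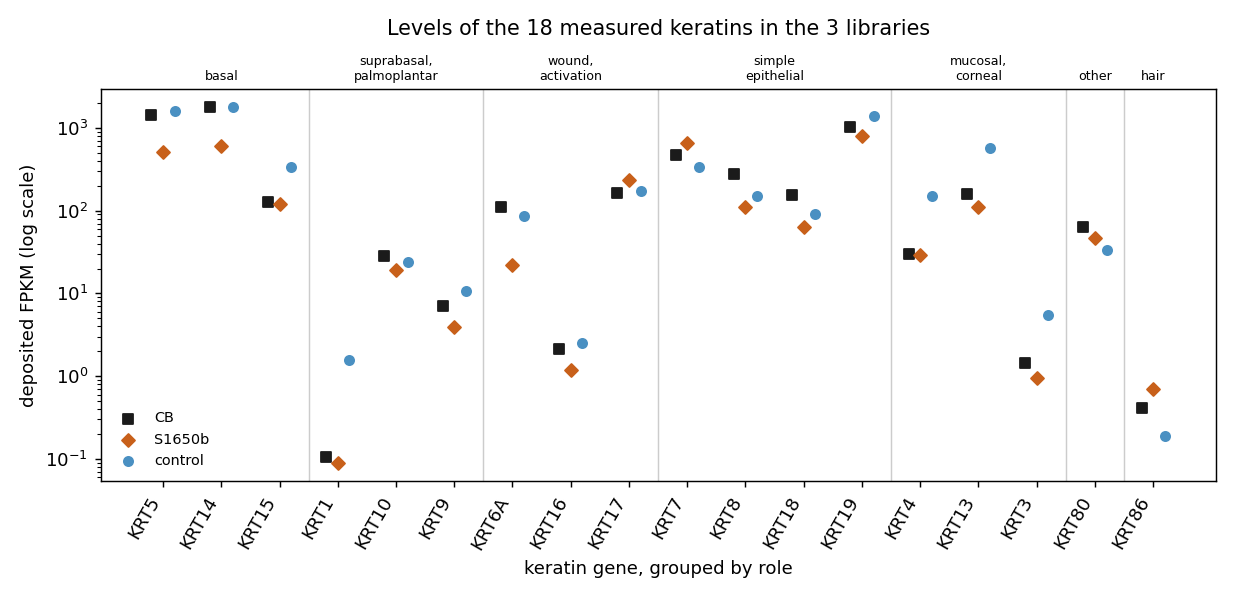
Deposited FPKM (log axis) of the 18 tested keratins in the CB, S1650b and control libraries, 1 point per library, grouped by role. KRT5 and KRT14 stand at 513 and 608 FPKM in S1650b, below CB and the control, and KRT4, KRT13, KRT3, KRT1 and KRT15 stand lower in both particle libraries than in the control.

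All 3 basal keratins were lower in the S1650b library, and 1 of them was lower in CB. KRT5 (ENSG00000186081, chr12:52514575-52520687 on GRCh38, minus strand), the type II chain of the basal layer, had 118885 counts in CB, 49645 in S1650b and 137862 in the control. KRT14 (ENSG00000186847, chr17:41582279-41586921, minus strand), its type I partner, had 78640 counts in CB, 31282 in S1650b and 80055 in the control. For both genes S1650b was far below the other libraries, which lay close together. The fold of S1650b over control was 0.307 for KRT5 (0.304 to 0.310) and 0.333 for KRT14 (0.329 to 0.337), and both were called lower. In CB the folds against the control were 0.850 for KRT5 and 0.968 for KRT14, and neither was called. KRT15 (ENSG00000171346), a type I keratin of basal cells and of the hair follicle bulge, was low in both particle libraries, with 17535 counts in CB, 19455 in S1650b and 47230 in the control. It was 2.73-fold lower in CB (2.69 to 2.78) and 2.85-fold lower in S1650b (2.80 to 2.90). Thus 1 of 3 basal keratins was lower in CB, beside 10.4% of all tested genes, and 3 of 3 in S1650b, beside 21.8%. Their median log2 folds were −0.23 in CB and −1.59 in S1650b, beside 0.01 and −0.10 over all tested genes. Of the 50-base windows of their transcripts, 3.99% of KRT5 and 23.8% of KRT14 also occur in another gene, chiefly KRT6C for KRT5 and KRT16 for KRT14.

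Among the keratins of differentiating and palmoplantar skin, KRT1 was far lower in both particle libraries while its partner KRT10 was not called. KRT1 (ENSG00000167768), the type II chain of the suprabasal layers, had 5 counts in CB, 5 in S1650b and 77 in the control. Low counts leave its fold wide: 15.6-fold lower in CB, with an interval of 6.42 to 49.5, and 18.1-fold lower in S1650b (7.42 to 57.2). KRT10 (ENSG00000186395), its type I partner, had 1158 counts in CB, 940 in S1650b and 1019 in the control, with folds against the control of 1.12 (1.03 to 1.22) in CB and 0.786 (0.719 to 0.860) in S1650b. KRT9 (ENSG00000171403), a type I keratin of palms and soles, had 307 counts in CB, 201 in S1650b and 483 in the control. It was 1.60-fold lower in CB (1.38 to 1.85) and 2.82-fold lower in S1650b (2.39 to 3.34). KRT2 and KRT77, the other members of this group, had at most 4 counts in any library and were not tested. No 50-base window of KRT1 or KRT9 occurs in another gene.

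Of the wound-associated keratins, KRT6A and KRT16 were lower in the S1650b library and KRT17 was not called. KRT6A (ENSG00000205420, chr12:52487174-52493257, minus strand), a type II chain induced at wound edges, had 6287 counts in CB, 1450 in S1650b and 4962 in the control. It was 4.01-fold lower in S1650b (3.79 to 4.26), and its fold in CB was 1.25 (1.20 to 1.30), which is not a call. KRT16 (ENSG00000186832), its type I partner, had 102 counts in CB, 66 in S1650b and 125 in the control, and was 2.22-fold lower in S1650b (1.64 to 3.04). KRT17 (ENSG00000128422), a type I chain of appendages and of activated epidermis, had its highest count in S1650b, with 9804 counts in CB, 16390 in S1650b and 10764 in the control. Its fold of 1.30 in S1650b (1.27 to 1.33) was not a call, but it became one with scaling by total counts (log2 0.62) and with length and GC trends removed (log2 0.81). In CB none of the 3 was called. KRT16 is uncertain: 6 KRT16 pseudogenes held 136 counts in CB, 35 in S1650b and 154 in the control. These are 133% of the KRT16 counts in CB, 53.0% in S1650b and 123% in the control.

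KRT6A has near-identical copies, KRT6B and KRT6C, and no source used here states how the counting split reads among them. Over the 1692 coding bases, KRT6A differs from KRT6B at 42 bases and from KRT6C at 35, and KRT6B differs from KRT6C at 25. A read must cover such a difference to tell the genes apart. The stretch from coding base 436 to 495, from GENCODE 29 transcripts on GRCh38, has capitals at the bases that are not the same in all 3. It was picked as the 60 bases where KRT6A differs most from both copies, so it is not a typical stretch.
KRT6A: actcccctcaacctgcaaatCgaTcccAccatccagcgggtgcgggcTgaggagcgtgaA
KRT6B: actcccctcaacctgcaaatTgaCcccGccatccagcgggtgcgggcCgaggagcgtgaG
KRT6C: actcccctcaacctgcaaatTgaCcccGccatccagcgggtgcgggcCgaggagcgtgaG
KRT6A differs from its copies at 5 bases here, and KRT6B and KRT6C are the same as each other. Of the 50-base windows of KRT6A, 35.2% also occur in KRT6C and 28.5% in KRT6B. The counts nonetheless lay almost wholly on KRT6A: KRT6C had 5 counts in CB, 0 in S1650b and 13 in the control, and KRT6B had 1 in CB, 0 in S1650b and 0 in the control. With the 3 genes summed, the fold was 1.25 in CB and 0.248 in S1650b. With so few counts on the copies this sum could hardly differ from KRT6A alone. Shared reads that the counting may have left out are not in it, so it does not settle their part.

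Among the keratins of simple epithelia, KRT8 and KRT18 were higher in CB, whereas in S1650b KRT7 was higher and KRT19 lower. KRT8 (ENSG00000170421, chr12:52897187-52949954, minus strand), the type II chain of simple epithelia, had 36521 counts in CB, 17404 in S1650b and 20411 in the control. KRT18 (ENSG00000111057, chr12:52948871-52952901, plus strand), its type I partner and neighbour, had 9604 counts in CB, 4579 in S1650b and 5787 in the control. Both were highest in CB and lowest in S1650b. KRT8 was 1.76-fold higher in CB (1.73 to 1.79) and KRT18 1.64-fold higher (1.58 to 1.69). In S1650b their folds of 0.727 and 0.674 against the control fell short of a call, although KRT18 was called with upper quartile scaling (log2 −0.64) and KRT8 with the length trend removed (log2 −0.66). Of the 50-base windows, 47.6% of KRT18 and 36.9% of KRT8 also occur in another gene. For KRT18 this is chiefly KRT8 (21.5%), and for KRT8 the pseudogene KRT8P3 (19%). The part of shared reads in the folds of KRT8 and KRT18 was not tested. KRT7 (ENSG00000135480, chr12:52232520-52252186, plus strand), a type II chain of ducts and glands, had 37012 counts in CB, 60610 in S1650b and 27496 in the control. It was 1.88-fold higher in S1650b (1.85 to 1.91), and its fold in CB was 1.33 (1.31 to 1.35), which is not a call. KRT19 (ENSG00000171345), a type I chain without the usual tail domain, had 45816 counts in CB, 42180 in S1650b and 63864 in the control. It was 1.78-fold lower in S1650b (1.76 to 1.80), a call that was lost with total counts (log2 −0.58) and with length and GC trends removed (log2 −0.35). KRT20, a keratin of gut epithelium, had 0 counts in each library.

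The mucosal and corneal keratins were the group with the lowest median against the control in both comparisons. Their median log2 fold was −1.99 for CB and −2.42 for S1650b, beside 0.01 and −0.10 over all tested genes. In each comparison 3 of 3 tested members were lower, beside 10.4% of all tested genes in CB and 21.8% in S1650b. KRT13 (ENSG00000171401), the type I chain of the oral and oesophageal lining, had 8846 counts in CB, 7212 in S1650b and 32809 in the control. KRT4 (ENSG00000170477), its type II partner, had 1895 counts in CB, 2159 in S1650b and 9752 in the control. For both genes the particle libraries lay close together and far below the control. KRT13 was 3.76-fold lower in CB (3.68 to 3.85) and 5.34-fold lower in S1650b (5.20 to 5.48). KRT4 was 5.22-fold lower in CB (4.97 to 5.49) and 5.30-fold lower in S1650b (5.06 to 5.56). KRT3 (ENSG00000186442), a type II keratin of the cornea, was likewise highest in the control but at a much lower level, with 64 counts in CB, 50 in S1650b and 251 in the control. It was 3.98-fold lower in CB (3.01 to 5.32) and 5.89-fold lower in S1650b (4.33 to 8.15). KRT12, the corneal partner of KRT3, had 0 counts in each library. The group held 0.0516% of all counts in CB, 0.0461% in S1650b and 0.207% in the control.

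**Figure D2:**
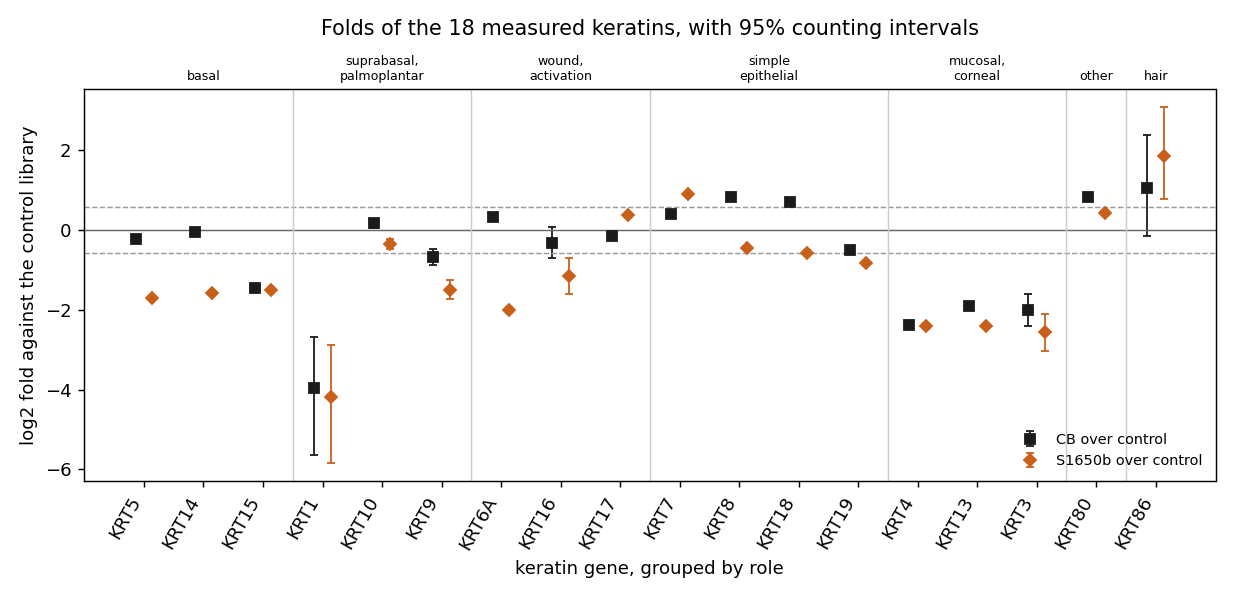
Log2 fold of scaled CPM against the control for the 18 tested keratins, in CB and in S1650b, with 95% counting intervals and dashed lines at a fold of 1.5 in each direction. KRT8, KRT18 and KRT80 lie above the upper line in CB, as does KRT86 with an interval that includes a fold of 1, KRT7 and KRT86 lie above it in S1650b, and the mucosal and corneal genes lie near or below −2 in both.

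KRT3 and KRT4 lie next to each other in the type II cluster and were lower together in both particle libraries. Their promoters are shown with those of KRT5, lower in S1650b, and KRT10, called in neither, to give the letters behind a motif search. Each sequence runs from 250 bases before to 50 bases after the start site, 5′ to 3′ on the minus strand, from RefSeq on GRCh38.p14, with motif matches in capitals.
KRT3, chr12:52796068-52796367: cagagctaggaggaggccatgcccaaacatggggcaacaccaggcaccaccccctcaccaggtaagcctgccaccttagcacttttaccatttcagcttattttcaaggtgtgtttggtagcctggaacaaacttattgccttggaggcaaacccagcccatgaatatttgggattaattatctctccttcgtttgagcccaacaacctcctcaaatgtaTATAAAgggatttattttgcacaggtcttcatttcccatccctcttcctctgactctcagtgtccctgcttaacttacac
KRT4, chr12:52814067-52814366: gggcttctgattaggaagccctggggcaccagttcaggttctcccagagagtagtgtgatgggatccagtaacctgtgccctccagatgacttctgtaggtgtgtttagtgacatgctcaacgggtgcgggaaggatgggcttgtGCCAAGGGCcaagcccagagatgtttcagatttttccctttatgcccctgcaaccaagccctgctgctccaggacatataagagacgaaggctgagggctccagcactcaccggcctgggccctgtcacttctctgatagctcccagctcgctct
KRT5, chr12:52520345-52520644: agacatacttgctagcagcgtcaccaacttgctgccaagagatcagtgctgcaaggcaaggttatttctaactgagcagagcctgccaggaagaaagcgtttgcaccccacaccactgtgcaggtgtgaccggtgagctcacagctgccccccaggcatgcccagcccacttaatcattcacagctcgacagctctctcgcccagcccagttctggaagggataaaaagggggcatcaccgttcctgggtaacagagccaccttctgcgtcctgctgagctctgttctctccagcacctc
KRT10, chr17:40822565-40822864: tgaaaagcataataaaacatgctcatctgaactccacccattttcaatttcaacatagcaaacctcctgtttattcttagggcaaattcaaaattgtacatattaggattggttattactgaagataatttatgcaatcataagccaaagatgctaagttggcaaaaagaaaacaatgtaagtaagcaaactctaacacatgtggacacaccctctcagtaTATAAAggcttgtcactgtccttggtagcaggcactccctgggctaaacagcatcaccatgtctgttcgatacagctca
The TATA box TATAAA starts 30 bases before the start site of KRT3 and 29 before that of KRT10, 1 gene that was lower in both particle libraries and 1 that was not called. KRT4 holds the AP-2 motif GCCNNNGGC at 105 bases before its start site, and KRT5 holds none of the motifs searched. These were also TGANTCA (AP-1), GGGCGG (GC box), GCGTG (core of the aryl hydrocarbon receptor element) and AGGTCA (bound by nuclear receptors), on both strands, and none of them contains another. Promoters of 34 of the 54 keratins were in the table used, and TATAAA occurred in 20 of them, 58.8%, beside 12% of all 27305 promoters. Only 6 of the 34 were of tested keratins, and TATAAA occurred in 2 of these 6, KRT3 and KRT10. Shares over the 34 thus describe mostly genes that were not tested. TGANTCA occurred in 0 of the 34, beside 7.76% of all, and GGGCGG in 17.6%, beside 44.6% of all. A match is a stretch of letters, and these windows say nothing of which factors bind.

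KRT80 and KRT86 were the remaining tested genes. KRT80 (ENSG00000167767), a type II chain found in many epithelia, had 5251 counts in CB, 4605 in S1650b and 2896 in the control. It was 1.79-fold higher in CB (1.71 to 1.87), and its fold of 1.36 in S1650b (1.29 to 1.42) became a call with total counts (log2 0.69) and with length and GC trends removed (log2 0.74). KRT86 (ENSG00000170442), a hair cortex keratin, had 19 counts in CB, 38 in S1650b and 9 in the control. It was 3.60-fold higher in S1650b (1.71 to 8.46), and in CB its interval of 0.897 to 5.22 included 1. Of the 50-base windows of KRT86, 35.3% also occur in KRT81 and 8.28% in the pseudogene KRT87P, so the counting could split their reads. Summed with KRT81 and KRT83, the fold in S1650b was 2.62 (1.37 to 5.34). KRT87P is not in that sum and had more counts than KRT86, with 97 in CB, 385 in S1650b and 91 in the control. Whether its reads have a part in the KRT86 call was not tested.

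The other 36 keratins had at most 13 counts in any library and were not tested. With no filter on low values, the call rule added 1 lower gene in CB against control (KRT74), 1 in S1650b against control (KRT6C) and 2 in S1650b against CB (KRT32 and KRT6C). The counts of the remaining genes were too low for this depth to show a difference. They include 16 of 17 hair shaft keratins and all 9 of the inner root sheath and companion layer. For 25 of them the count was 0 in each library, which allows up to 3 counts per library. Besides KRT6C, those with at least 5 counts in a library were KRT74 with 1 count in CB, 4 in S1650b and 10 in the control, KRT32 with 8, 1 and 2, KRT81 with 7, 2 and 4, and KRT33A with 1, 4 and 5, each in the same order of libraries.

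The make-up of the keratin pool, as shares of the summed level per length, differed most in S1650b. The basal keratins made up 57.5% of the pool in CB, 37.2% in S1650b and 55.3% in the control. The keratins of simple epithelia made up 32.9% in CB, 48.9% in S1650b and 29.1% in the control, so in S1650b they passed the basal ones. KRT7 alone made up 8.04% of the pool in CB, 19.7% in S1650b and 5.03% in the control, and KRT19, whose counts were lower in S1650b, made up 17.4% in CB, 24.0% in S1650b and 20.5% in the control. The mucosal and corneal genes made up 3.23% in CB, 4.18% in S1650b and 10.7% in the control. The order of levels changed with this. In FPKM, KRT14, KRT5 and KRT19 led in CB (1790, 1438 and 1018) and in the control (1771, 1621 and 1380), whereas KRT19 (801), KRT7 (657), KRT14 (608) and KRT5 (513) led in S1650b. KRT13 was the fourth in the control, at 568 FPKM, and stood at 158 FPKM in CB and 110 in S1650b. These shares rest on exon lengths that exceed the main transcript. With the principal coding transcript, the basal share was 50.8% in CB, 30.9% in S1650b and 50.6% in the control, and the leading gene in S1650b was KRT7.

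**Figure D3:**
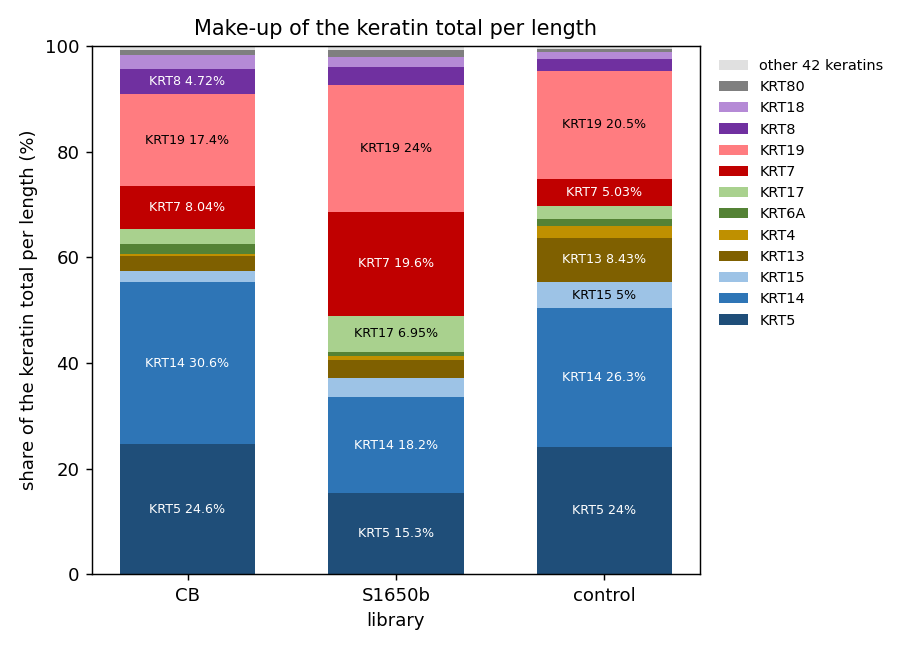
Share of the summed keratin level per length (stacked bars, %) taken by each of the 12 largest keratins and by the other 42 together in the CB, S1650b and control libraries. The blue basal block (KRT5, KRT14 and KRT15) is smallest in S1650b, where KRT7 and KRT19 take the largest room.

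Type II and type I partners did not all move together. The ratio per length of KRT5 to KRT14 was 0.803 in CB, 0.843 in S1650b and 0.915 in the control, so the balance of the pair differed little although both genes were lower in S1650b. KRT8 to KRT18 was 1.78 in CB, 1.78 in S1650b and 1.65 in the control, likewise close. KRT1 to KRT10 was 0.00372 in CB (0.00121 to 0.00871), 0.00458 in S1650b (0.00148 to 0.0107) and 0.0651 in the control (0.0510 to 0.0821), since KRT1 was lower in the particle libraries and KRT10 was not called. KRT7 to KRT19 was 0.461 in CB, 0.820 in S1650b and 0.246 in the control, and KRT6A to KRT16 was 52.1 in CB, 18.6 in S1650b and 33.6 in the control. KRT4 to KRT13 was 0.188 in CB, 0.263 in S1650b and 0.261 in the control. Over the whole family, type II to type I was 0.693 in CB, 0.705 in S1650b and 0.547 in the control. The size of each ratio depends on the lengths used. For a pair of genes its order among the libraries does not, whereas the ratio over the family sums genes of different lengths, and the order of CB and S1650b in it can depend on them.

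**Figure D4:**
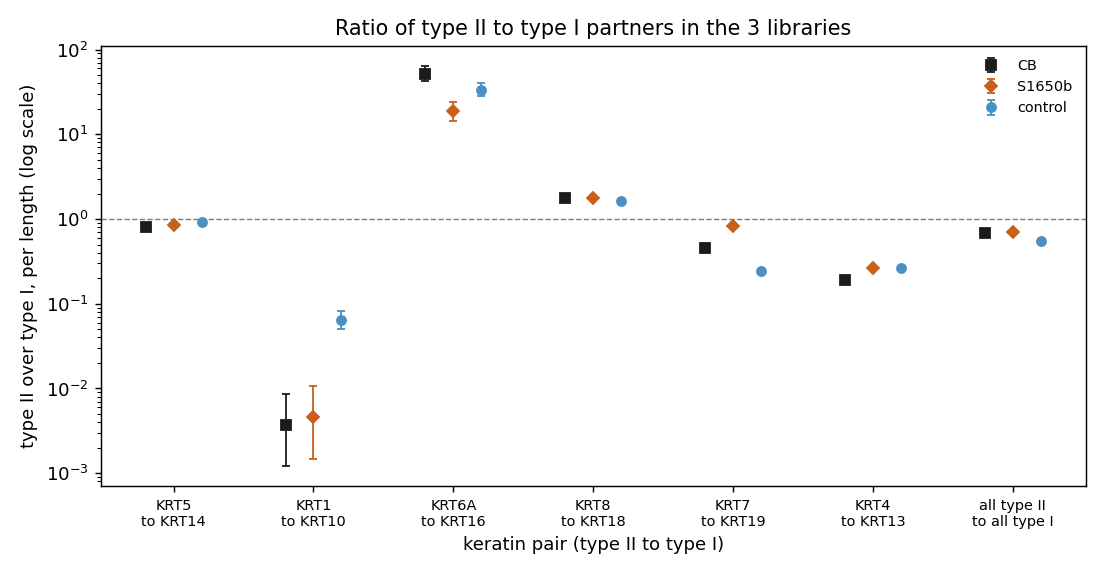
Ratio per length of type II to type I partners (log axis) in the CB, S1650b and control libraries, with 95% counting intervals. KRT5 to KRT14 and KRT8 to KRT18 stay near the same level in the 3 libraries, KRT1 to KRT10 is lower in both particle libraries, and KRT7 to KRT19 is 0.461 in CB, 0.820 in S1650b and 0.246 in the control.

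Set directly against CB, S1650b had 7 of the 18 tested keratins lower, beside 23.0% of all tested genes, and 0 higher, beside 24.3%. The median log2 fold was −0.51 for these keratins and −0.04 for all tested genes. At a fold of 2, 5 keratins were lower, beside 10.8%, and 0 higher, beside 14.4%. The 7 were KRT5 (2.77-fold lower), KRT14 (2.91-fold), KRT6A (5.01-fold), KRT16 (1.79-fold), KRT8 (2.43-fold), KRT18 (2.42-fold) and KRT9 (1.77-fold). None of the mucosal genes was called: the fold of S1650b over CB was 0.986 for KRT4 (0.926 to 1.05), 0.705 for KRT13 (0.684 to 0.728) and 0.676 for KRT3 (0.457 to 0.994). Nor was KRT15, at 0.960 (0.9402 to 0.9795), or KRT1, at 0.865 (0.199 to 3.76). KRT17, at 1.45 (1.41 to 1.48), and KRT7, at 1.42 (1.40 to 1.44), came nearest to a call upward, apart from KRT86 on 38 and 19 counts, and both were called with total counts and with length and GC trends removed, by log2 values of 0.78 and 0.75 for total counts. The calls of KRT9 and KRT16 were lost with length and GC trends removed (log2 −0.48 and −0.45), and that of KRT9 also with total counts (log2 −0.57).

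All tested type I genes but KRT18 lie in a cluster on chromosome 17, and the tested type II genes lie with KRT18 in a cluster on chromosome 12. Along chromosome 12, KRT80, KRT7 and KRT86 stand at 1 end and KRT8 and KRT18 at the other, with KRT6A, KRT5, KRT1, KRT3 and KRT4 between them. In S1650b against control, the 5 genes in the middle were all lower, KRT7 and KRT86 were higher and KRT80, KRT8 and KRT18 were not called. The folds of KRT8 and KRT18 were nonetheless below 1, at 0.727 and 0.674. In CB against control, KRT1, KRT3 and KRT4 were lower and KRT80, KRT8 and KRT18 were higher. On chromosome 17 no tested gene was called higher in either comparison, beside 4.91% of all tested genes in CB and 20.4% in S1650b. With so few genes there, this says little. KRT17, which lies there, became a higher call in S1650b with total counts (log2 0.62) and with length and GC trends removed (log2 0.81). Transcripts beside KRT7 were also higher in S1650b: the antisense gene KRT7-AS had 311 counts in CB, 996 in S1650b and 248 in the control (3.42-fold higher, 2.97 to 3.95), and the pseudogene KRT87P had 97 in CB, 385 in S1650b and 91 in the control (3.61-fold, 2.86 to 4.58). Exons of these genes overlap 7.67% of KRT7, and those of KRT18 and KRT8 overlap 7.63% of KRT8 and 16.3% of KRT18. No source used here states a strand setting for the counting, so reads of overlapping genes cannot be told apart. The antisense gene within KRT13, which covers 16.3% of its exons, had 0 counts in each library.

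**Figure D5:**
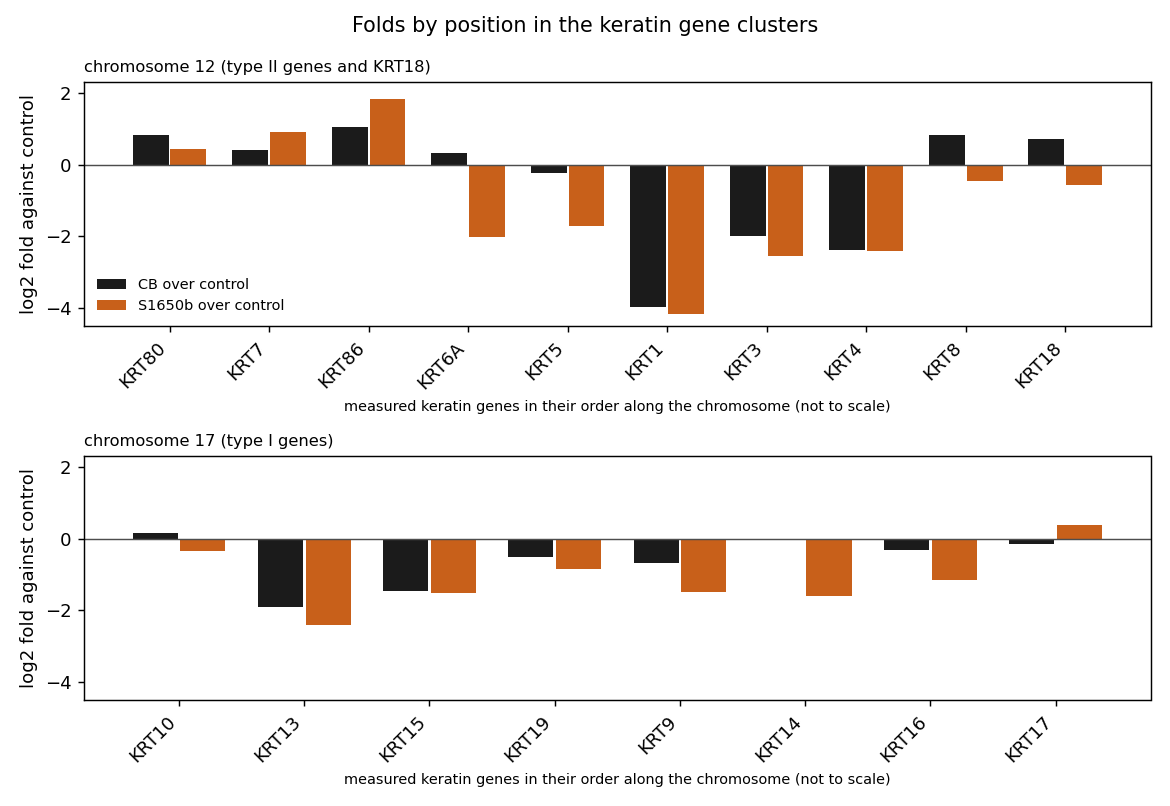
Log2 fold against the control of the tested keratins in CB and in S1650b, in gene order along chromosomes 12 and 17 (spacing not to scale). Genes in the middle of the chromosome 12 cluster lie below 0 in S1650b, as do KRT8 and KRT18 at the other end, which were not called there. KRT80, KRT7 and KRT86 at one end lie above 0 in both particle libraries, although not each of these folds was called.

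Over all genes, the difference of S1650b from the control also varied with the GC content and length of a gene. The median log2 fold of S1650b over control was 0.55 in the eighth of tested genes with the least GC and −0.47 in the eighth with the most, and −0.36 in the shortest eighth against 0.43 in the longest. In CB over control the same medians were 0.06 and −0.07 for GC and −0.09 and 0.02 for length. The tested keratins had a GC content of 52.0 to 62.9%, with a median of 56.8%, beside 48.6% over all tested genes. They were also shorter, with a median of 2920 exon bases beside 4579 over all tested genes. With length and GC trends removed, 10 of the 18 keratins were still lower in S1650b and 4 were higher, so the lower calls other than KRT19 held. The values of KRT5, KRT14, KRT6A and KRT13 were then −1.39, −1.11, −1.61 and −1.98 on the log2 scale.

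Of 47 genes that attach, bind or regulate keratins, 38 were tested. In CB 1 was higher and 4 were lower, beside 4.91% and 10.4% of all tested genes, so the lower share was near that of all genes. Their median log2 fold was 0.05, beside 0.01. In S1650b 3 were higher and 14 lower, beside 20.4% and 21.8% of all tested genes, with a median of −0.43 beside −0.10. The lower genes numbered 8 with scaling by total counts and 9 with length and GC trends removed. Some of the lower calls named below therefore depend on the scaling. In S1650b against CB 6 were higher and 12 lower, beside 24.3% and 23.0%, with a median of −0.28 beside −0.04. Among the linkers, DSP, the desmosomal plakin that holds keratin filaments, had 4169 counts in CB, 8809 in S1650b and 4329 in the control and was 1.73-fold higher in S1650b. DST, whose epithelial form ties keratins to hemidesmosomes, was 4.02-fold higher in S1650b (3.71 to 4.35). Both move opposite to KRT5 and KRT14 there, but both are long genes, with 10093 exon bases for DSP and 42341 for DST. With length and GC trends removed, 1 of the 47 genes was called higher in S1650b against control. DSP and DST thus did not both keep their calls. EPPK1, PKP1 and PKP3, which also bind keratin or desmosomes, were lower in S1650b at folds of 0.392, 0.565 and 0.558. FLG, filaggrin, which bundles keratin filaments in the cornified layer, was lower in CB at a fold of 0.630. PLEC, plectin, was called in neither comparison, at folds of 1.42 in CB and 1.07 in S1650b.

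Of the other intermediate filament genes, the nuclear lamins were lower in S1650b. LMNB1 had 5216 counts in CB, 1020 in S1650b and 4231 in the control and was 4.87-fold lower (4.55 to 5.22). LMNB2 was 3.10-fold lower and LMNA 1.52-fold lower, the latter just past the fold of 1.5 needed for a call. NES, nestin, with 33 counts in CB, 7 in S1650b and 20 in the control, is counted among the 14 lower genes but passed the filter only through CB and the control, and 13 were lower among genes that passed in both S1650b and the control. BFSP1, a filament protein of the lens, was lower in CB at a fold of 0.416. VIM, the filament protein of mesenchymal cells, had 5 counts in CB, 8 in S1650b and 4 in the control, and DES had 0 in each, beside 258288 or more counts of keratins in each library. Among regulators, TP63, the master factor of stratified epithelia, was not called, with folds of 1.14 in CB and 1.20 in S1650b. GRHL3 was lower in CB at a fold of 0.509 and in S1650b at 0.307, and RXRA, a partner of the retinoic acid receptors that repress several keratin genes, was lower in CB at 0.642 and in S1650b at 0.517. KLF4, a factor of differentiating epidermis, was lower in S1650b at 0.575, and NR3C1, the glucocorticoid receptor, was 2.47-fold higher. HSPA8, a chaperone that handles keratin filaments, had 58431 counts in CB, 19260 in S1650b and 26588 in the control, and was 2.17-fold higher in CB and 1.62-fold lower in S1650b. KRT8 and KRT18 showed the same order of libraries, but so did KRT6A, LMNB1, LMNB2 and LMNA, so the order is not particular to HSPA8. HSPB1, another chaperone of filaments, was lower in S1650b at 0.529.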

How the data were processed

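Trizol was used to extract total RNA and a NEBNext Ultra kit to make the libraries, per the labels. The authors deposited a table of counts per Ensembl gene, which are whole numbers, and a table of FPKM values computed by the authors. Counts over FPKM gave lengths in a constant ratio (0.959) to the GENCODE 29 exon union for 12684 genes, and all 58735 identifiers are in GENCODE 29 (GRCh38), from which positions were taken. Symbols of 58207 came from a name table. CASAVA 1.7 and the builds mm8 and mm9, which are of the mouse and conflict with the human identifiers, stand in the submitters' processing notes. No aligner, counter or strand setting is stated in the sources used here.

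TMM factors (edgeR 4.0.16, R 4.3.3) were fitted on the whole count table. Folds have exact conditional binomial (Clopper-Pearson) intervals, and 0.5 counts were added before log2. Every tested keratin is named, and of linked genes a part of those a rule picks (up to 4 called members per list and comparison, by the interval end farthest from 1), with DSP, PLEC, TP63, VIM and DES added after their values were seen. The keratins, roles, linked gene lists and tests were chosen with earlier results of these data known. The fold and trend steps were tested on simulated data. Alternatives were scaling by total counts, upper quartile or DESeq2 1.42.0 size factors, TMM without keratin genes, without mitochondrial genes or on filtered genes, other filters and folds, FPKM with 0.1 added, equal depth (seed 7), removal of length and GC trends (lowess, span 30%), summed copies and the principal coding transcript length. Scripts ran in Python 3.11.15 (scipy 1.17.1, statsmodels 0.14.6, numpy 2.4.6, pandas 2.3.3, matplotlib 3.10.9).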

Additional observations from a re-analysis of the deposited data

How the results depend on the processing

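No paired analysis was possible because each group holds 1 library. Median log2 fold of all tested genes in S1650b over control was 0.15 with total counts, against −0.10 as reported. Keratins higher in CB numbered 0 at a fold of 2 and 0 at 3. In S1650b against control, 4 were higher with total counts, with length and GC trends removed and with the GC trend removed, and 1 at 5 CPM, at 1 CPM in both libraries and at folds of 2 and 3, where 7 were lower at 3. In S1650b against CB, 3 were higher with total counts, with both trends removed and with GC removed, 2 with length removed and with TMM on filtered genes, 1 with FPKM, and 1 was lower at a fold of 3. Of the linked genes, those lower in CB numbered 1 at a fold of 2 and 0 at 3, and those higher 0 at 3 and 2 with both trends removed. In S1650b against control, 8 were lower with total counts, 5 at a fold of 2, 4 at 3 and 9 with both trends removed, and 1 was higher at 3 and with both trends removed. Against CB, 7 were lower with total counts, 4 at a fold of 2 and 4 at 3, and 3 were higher at 2, with length removed and with both trends removed, and 1 at 3. Stricter thresholds give fewer calls by construction, and for the scalings and trends the cause was not tested.

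The keratin share over protein-coding genes, without mitochondrial genes and of summed FPKM was 1.85, 1.88 and 1.69% in CB, 1.31, 1.35 and 1.20% in S1650b, and 2.22, 2.27 and 1.97% in the control. With principal coding transcript lengths the ratios in CB, S1650b and control were 0.993, 1.04 and 1.13 for KRT5 to KRT14, 2.79, 2.79 and 2.59 for KRT8 to KRT18, 0.640, 1.14 and 0.341 for KRT7 to KRT19, 0.141, 0.197 and 0.196 for KRT4 to KRT13, and 0.882, 0.911 and 0.646 for type II to type I. TMM on filtered genes, the GC trend alone, 1 CPM in both libraries and these lengths were chosen after seeing the data. Calls of single keratins were compared under the scaling, library content, FPKM, depth and trend settings (not the fold thresholds, filters or summed copies). In CB against control 197 values kept their call or lack of a call and 1 gained a call. In S1650b against control 187 kept it, 8 gained and 3 lost a call. In S1650b against CB 178 kept it, 15 gained and 5 lost a call. Direction is not part of these counts. Uncalled folds near 1 changed sign for KRT14 in CB against control and for KRT15, KRT1, KRT4 and KRT19 in S1650b against CB. With 1 library per group, the spread between cultures is unknown and the intervals give no measure of it.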
